A study of Mus musculus with 6 samples.

Results

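The genes described here are 38 components of apoptosis, necroptosis and pyroptosis, the 3 main programs by which an animal cell brings about its own death. They were taken by gene symbol from a count table of 23399 genes, in which all 38 were present. By their best-known role 29 were counted as promoting death and 9 as restraining it. The libraries came from spheroids of CMT93, a mouse colorectal carcinoma line labelled as wild type. Cells of the 3 palmitate libraries were kept in 200 µM palmitate, a saturated fatty acid carried on albumin and dissolved in ethanol, for 1 week in monolayer and then for 5 days as spheroids over soft agar with a little Matrigel. Cells of the 3 vehicle libraries received the same ethanol and albumin for the same times. The libraries within a group are numbered but not said to be separate cultures, and the p-values therefore reflect the spread among libraries alone, possibly technical spread. The model is 1 cell line without immune or stromal cells added, and message was measured, not protein, cleavage or dying cells.

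Apoptosis starts either at the mitochondrion or at a death receptor. At the mitochondrion, the pore formers BAX, BAK and BOK open the outer membrane, the guardians BCL2, BCL-xL, BCL-w and MCL1 hold them shut, and the BH3-only proteins bind guardians or pore formers and tip the balance. Cytochrome c then joins APAF1 and caspase-9, while inhibitors of apoptosis hold caspases back until SMAC and HTRA2 leave the mitochondrion and displace them. At a death receptor, FADD recruits caspase-8, which the inactive relative c-FLIP restrains, and RIPK1 is a scaffold of the same complexes. Necroptosis runs through RIPK3 and its substrate MLKL, and pyroptosis through inflammatory caspases that cut gasdermin D. In the gut epithelium these programs shape the shedding of old cells and the response to invading bacteria, and palmitate is widely used as a lipotoxic challenge to cultured cells.

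The 6 libraries held 22.5 to 22.9 M counts with palmitate and 18.9 to 21.9 M with vehicle, so each palmitate library was deeper than each vehicle library. Of 12 colon epithelial markers, 11 were in the table and all 11 were above 1 CPM (library-scaled counts, with TMM factors), with summed levels of 6983 to 7079 CPM with palmitate and 7616 to 7696 CPM with vehicle. Of 14 leukocyte markers 7 were in the table, with sums of 9.98 to 10.96 CPM with palmitate and 7.69 to 9.32 CPM with vehicle. Nearly all of that sum was Cd68, a lysosomal protein, and the pan-leukocyte marker Ptprc had 18 counts over the palmitate libraries and 52 over the vehicle libraries. Sums stayed at or under 2.05 CPM for fibroblast markers and 3.74 CPM for endothelial markers, whose most abundant genes were Col1a1 and Cdh5. The part of other cells in the results was not tested.

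Of the members, 5 passed a test against a change of 1.2-fold (edgeR glmTreat), which called 15.2% of all tested genes. They were 3 of higher level (6.46% of all genes) and 2 of lower level (8.72%), and the promoters of these genes are shown first, as the stretch from 250 bases before to 50 bases after the transcription start. They are RefSeq sequence on GRCm38.p6, an earlier build than the mm39 of the counts, given 5′ to 3′ on the strand of the gene. Casp4 (chr9:5308599-5308898, + strand) and Casp12 (chr9:5345226-5345525, + strand) encode inflammatory caspases and rose. Bok (chr1:93685325-93685624, + strand), a pore former of the BCL2 family, rose too. Cflar (chr1:58711241-58711540, + strand), which encodes c-FLIP, and Birc3 (chr9:7873121-7873420, − strand), an inhibitor of apoptosis, fell. Birc3 entered the test through the vehicle libraries alone, where it is higher, so a difference in that direction was built into its being tested.
Casp4: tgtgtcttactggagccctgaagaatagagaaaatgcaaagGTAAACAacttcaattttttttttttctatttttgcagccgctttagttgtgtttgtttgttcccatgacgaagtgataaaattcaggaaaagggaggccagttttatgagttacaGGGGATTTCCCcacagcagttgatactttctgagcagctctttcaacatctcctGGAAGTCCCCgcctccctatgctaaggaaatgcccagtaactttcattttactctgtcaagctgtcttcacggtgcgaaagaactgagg
Casp12: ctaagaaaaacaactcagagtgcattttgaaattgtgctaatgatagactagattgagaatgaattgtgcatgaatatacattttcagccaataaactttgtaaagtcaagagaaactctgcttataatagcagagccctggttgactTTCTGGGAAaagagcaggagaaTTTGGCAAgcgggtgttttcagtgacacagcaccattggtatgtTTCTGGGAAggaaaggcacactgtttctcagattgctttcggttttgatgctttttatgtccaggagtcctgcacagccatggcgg
Bok: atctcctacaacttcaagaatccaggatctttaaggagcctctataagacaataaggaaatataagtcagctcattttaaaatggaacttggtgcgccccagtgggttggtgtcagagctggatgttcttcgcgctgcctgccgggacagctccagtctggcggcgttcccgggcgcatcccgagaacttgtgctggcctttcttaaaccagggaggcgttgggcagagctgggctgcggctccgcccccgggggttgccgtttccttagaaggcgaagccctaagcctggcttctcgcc
Cflar: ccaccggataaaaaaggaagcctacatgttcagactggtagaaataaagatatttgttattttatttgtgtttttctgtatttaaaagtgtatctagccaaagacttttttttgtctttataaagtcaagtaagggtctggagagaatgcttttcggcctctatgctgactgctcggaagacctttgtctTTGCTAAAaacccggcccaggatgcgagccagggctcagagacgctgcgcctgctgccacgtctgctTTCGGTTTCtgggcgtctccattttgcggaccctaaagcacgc
Birc3: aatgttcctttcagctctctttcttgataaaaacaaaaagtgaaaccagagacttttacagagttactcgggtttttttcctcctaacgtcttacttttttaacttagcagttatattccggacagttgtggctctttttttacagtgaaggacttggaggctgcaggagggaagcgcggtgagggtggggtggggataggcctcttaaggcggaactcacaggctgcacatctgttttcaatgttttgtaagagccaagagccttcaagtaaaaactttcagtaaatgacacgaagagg
Capitals mark matches, on either strand, to 6 motifs: the NF-kB consensus (the kappa-B site, named only because it needs ambiguous letters), a FOXO motif (GTAAACA), the interferon motifs GAS (TTCNNNGAA) and ISRE (GAAANNGAA), a C/EBP motif (TTGCNNAA) and a PPAR half-site (AGGTCA). The Casp4 window held 1 FOXO match, whose first base lay 209 bases before the start, and FOXO matches were in 3.65% of 32841 promoter windows. It also held 4 NF-kB matches (in 8.46% of windows), with the strands counted apart. Of these, 3 overlap in 1 stretch at 93 and 92 bases before the start, and 2 of the 3 are the same bases read on either strand. The remaining NF-kB match lies 39 bases before the start. This consensus was adopted after a kappa-B-like string had been seen in the Casp4 window, so a match there was built in. The Casp12 window held 2 GAS matches, 102 and 36 bases before the start (in 8.30% of windows), and 1 C/EBP match 80 bases before it (in 10.8%). These 3 matches do not overlap. The GAS motif reads alike on both strands, so each of its matches is counted once. The Cflar window held 1 C/EBP match 60 bases before the start and 1 ISRE match that begins at base 8 after it (in 8.56%). The Bok and Birc3 windows held none of the 6. A promoter was at hand for 34 of the 38 members, in 47 windows, and 14 members had a match to any motif in at least 1 window. The NF-kB consensus was in windows of 7 members and the PPAR half-site, present in 16.3% of all windows, in windows of 5. FOXO matches were in windows of 3 members, GAS of 2, ISRE of 4 and C/EBP of 4. A member can have several windows, so these counts cannot be set against the shares, which are per window. No share of all windows is given for a match to any of the 6 motifs. The motifs were chosen with the changes known, and a match is a string of letters, not a measured binding site.

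The members with the largest absolute log2 fold changes were Birc3, Casp4, Casp12, Bok and Cflar. Casp1, Ripk3, Bik and Hrk were too low to test. Of the 34 tested, 13 were higher with palmitate, 11 lower and 10 not past the threshold (edgeR quasi-likelihood test, Benjamini-Hochberg over all tested genes, adjusted p under 0.05). That is 70.6% of tested members, and 52.8% of all 14987 tested genes were called in this comparison, 27.4% higher and 25.4% lower. The tested members were more abundant, with a median of 50.0 CPM, against 25.4 CPM for all tested genes. Their median absolute log2 fold change was 0.14, against 0.15 over all tested genes, and 18 of the 24 called members differed by less than 1.2-fold. The median over all 34 was 0.02. In 10 of the 34 every palmitate library lay above every vehicle library and in 13 every palmitate library lay below, where 29.7% and 28.1% of all tested genes did so, or 57.8% in either direction.

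Of 25 tested death-promoting members 11 were higher, 5 lower and 9 not called, with a median log2 fold change of 0.09; 44.0% of them were thus higher, where 27.4% of all tested genes were higher and 25.4% lower. Of 9 death-restraining members 2 were higher, 6 lower and 1 not called, with a median of -0.15, or 22.2% higher and 66.7% lower with Birc3 counted, while the median over all tested genes was 0.00. Caspase-8, RIPK1 and AIF also have survival roles, and without Casp8, Ripk1 and Aifm1 the death-promoting members numbered 9 higher and 5 lower. With DESeq2 in place of edgeR only 7 death-promoting members were higher, and the 6 lower death-restraining members were still 6 in number. Over all genes DESeq2 called fewer too, 3113 higher and 2579 lower, against 4110 higher and 3805 lower with edgeR. The counts of members describe the lists and were not tested as sets.

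**Figure D1:**
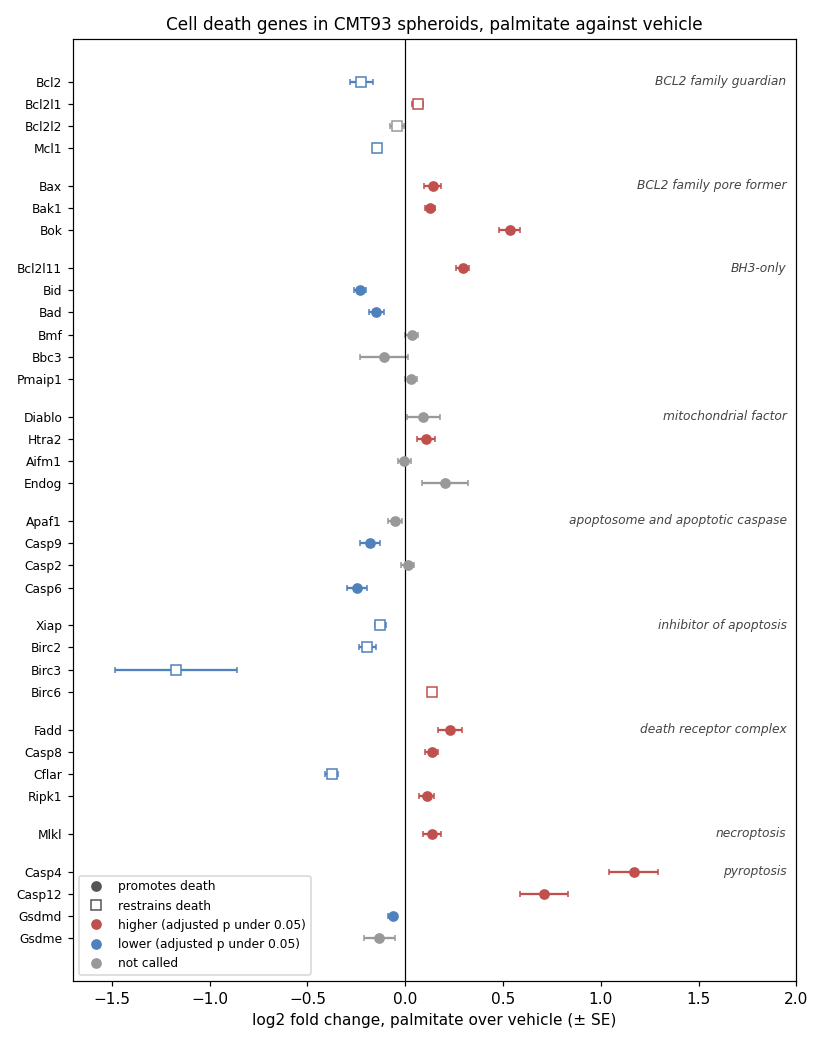
Log2 fold change of palmitate over vehicle for the 34 tested members, by role, with its standard error (edgeR, 3 libraries per group). Filled circles promote death and open squares restrain it. Casp4 at 1.17 and Birc3 at -1.17 lie far from the rest, most of which sit within 0.3 of 0.

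Among pore formers, each of the 3 was higher with palmitate. Bok (ENSMUSG00000026278.15), whose product can act without BH3-only activators, had 28.2, 25.1 and 28.4 CPM in the palmitate libraries, against 19.5, 18.9 and 18.1 CPM in the vehicle libraries. Every palmitate library lay above every vehicle library. The means were 27.2 ± 1.83 CPM with palmitate and 18.8 ± 0.674 CPM with vehicle (mean ± SD of 3 libraries per group; edgeR adjusted p = 5.17e-14, log2 fold change 0.53 with SE 0.0554). Bak1, which sits ready on the outer mitochondrial membrane, had 143, 145 and 141 CPM with palmitate, against 132, 134 and 128 CPM with vehicle, again without overlap (log2 fold change 0.13, adjusted p = 5.43e-06, edgeR). Bax, which moves there from the cytosol, had 46.2, 44.4 and 42.3 CPM with palmitate, against 42.3, 38.4 and 40.2 CPM with vehicle. The lowest palmitate and the highest vehicle library met (log2 fold change 0.14, adjusted p = 0.00347, edgeR). The call of Bax was lost without vehicle replicate 2 (adjusted p = 0.0602, edgeR) and with DESeq2 (adjusted p = 0.0556), and 22.1% of its exon bases are shared with another annotated gene on the same strand.

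The guardians split. Mcl1 (ENSMUSG00000038612.17), a short-lived guardian on which many epithelial and cancer cells depend, had 294, 298 and 282 CPM with palmitate, against 321, 326 and 320 CPM with vehicle. All 3 palmitate libraries were below all 3 vehicle libraries. The log2 fold change was -0.15 with SE 0.0192 (edgeR adjusted p = 4.51e-10). Bcl2, the founding member of the family, was scarcer, with 17.8, 17.7 and 18.6 CPM with palmitate and 20.01, 21.9 and 21.2 CPM with vehicle (log2 fold change -0.22, adjusted p = 0.000653, edgeR). Bcl2l1, which encodes BCL-xL, had 112, 115 and 107 CPM with palmitate and 107, 108 and 105 CPM with vehicle, and these overlap. Its small rise (log2 fold change 0.06, adjusted p = 0.0439, edgeR) was lost when any library other than palmitate replicate 3 was left out (adjusted p = 0.05002 to 0.276), with DESeq2 (adjusted p = 0.183), with median-of-ratios size factors (adjusted p = 0.0571) and after thinning to the shallowest library (adjusted p = 0.0550). Bcl2l2, which encodes BCL-w, was not called: its fold was 0.970, with a 95% interval of 0.924 to 1.02, and 14.6% of its exon bases are shared with a gene on the same strand.

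The BH3-only genes did not move as a group. Bcl2l11, which encodes BIM, a binder of all guardians, had 83.3, 82.4 and 87.9 CPM with palmitate, against 69.0, 67.6 and 70.3 CPM with vehicle. The groups were well apart, and BIM was the 1 member of this class that rose (log2 fold change 0.29 with SE 0.0319, edgeR adjusted p = 3.33e-13). Bid, the link from caspase-8 to the mitochondrion, went the other way, with 71.0, 70.3 and 68.2 CPM with palmitate and 83.3, 80.4 and 82.7 CPM with vehicle (log2 fold change -0.23, adjusted p = 8.22e-10, edgeR). Bad, which growth factor signals silence by phosphorylation, had 45.0, 45.5 and 44.7 CPM with palmitate and 50.0, 51.0 and 48.9 CPM with vehicle (log2 fold change -0.15, adjusted p = 0.000718, edgeR). For both genes all palmitate libraries lay below all vehicle libraries. For Bad, 21.6% of exon bases are shared with a gene on the opposite strand; the strand setting of the counting is not stated in the labels or headers.

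The BH3-only genes Pmaip1, Bmf and Bbc3 were not called. Pmaip1, which encodes NOXA, averaged 70.1 ± 1.78 CPM with palmitate and 68.7 ± 0.926 CPM with vehicle, a fold of 1.02 with a 95% interval of 0.976 to 1.07. Bmf, released from the cytoskeleton when cells detach, had a fold of 1.02 with an interval of 0.979 to 1.07. Bbc3, which encodes PUMA, was scarce, with 93, 87 and 99 counts with palmitate and 85, 96 and 98 with vehicle, and its fold of 0.927 had the widest interval of the 3, 0.783 to 1.10. Bik had 7 to 8 counts per palmitate library and 3 to 9 per vehicle library, and Hrk 1 count over the palmitate libraries and 3 over the vehicle libraries, so neither could be compared at this depth.

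Within each library, the summed level of the 3 pore formers was set against that of the 4 guardians, in CPM per kilobase of annotated exon so that genes of different length could be added. The ratio was 1.01, 0.971 and 1.01 in the palmitate libraries, against 0.848, 0.807 and 0.819 in the vehicle libraries. It was higher in all 3 palmitate libraries, with pore formers summing to 129 ± 2.602 with palmitate and 114 ± 2.68 with vehicle, and guardians to 130 ± 3.77 with palmitate and 138 ± 1.64 with vehicle (mean ± SD of 3 libraries). The ratio of BIM to MCL1 message was 0.140, 0.137 and 0.154 with palmitate and 0.107, 0.103 and 0.109 with vehicle. Summed over all members, death-promoting over death-restraining message was 2.75, 2.68 and 2.75 with palmitate and 2.55, 2.48 and 2.53 with vehicle. Bcl2l11 over Bcl2 was 6.23, 6.16 and 6.26 with palmitate and 4.58, 4.09 and 4.41 with vehicle, and Bax over Bcl2 was 27.5, 26.4 and 24.0 with palmitate and 22.3, 18.5 and 20.02 with vehicle. Bax over Bcl2l1 overlapped, at 1.85, 1.73 and 1.78 with palmitate and 1.78, 1.597 and 1.72 with vehicle. Casp9 over Apaf1 was lower with palmitate, at 1.129, 1.03 and 1.06, against 1.134, 1.24 and 1.14 with vehicle. These ratios were formed with the members' changes known, are given without a test, and say nothing of protein.

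**Figure D2:**
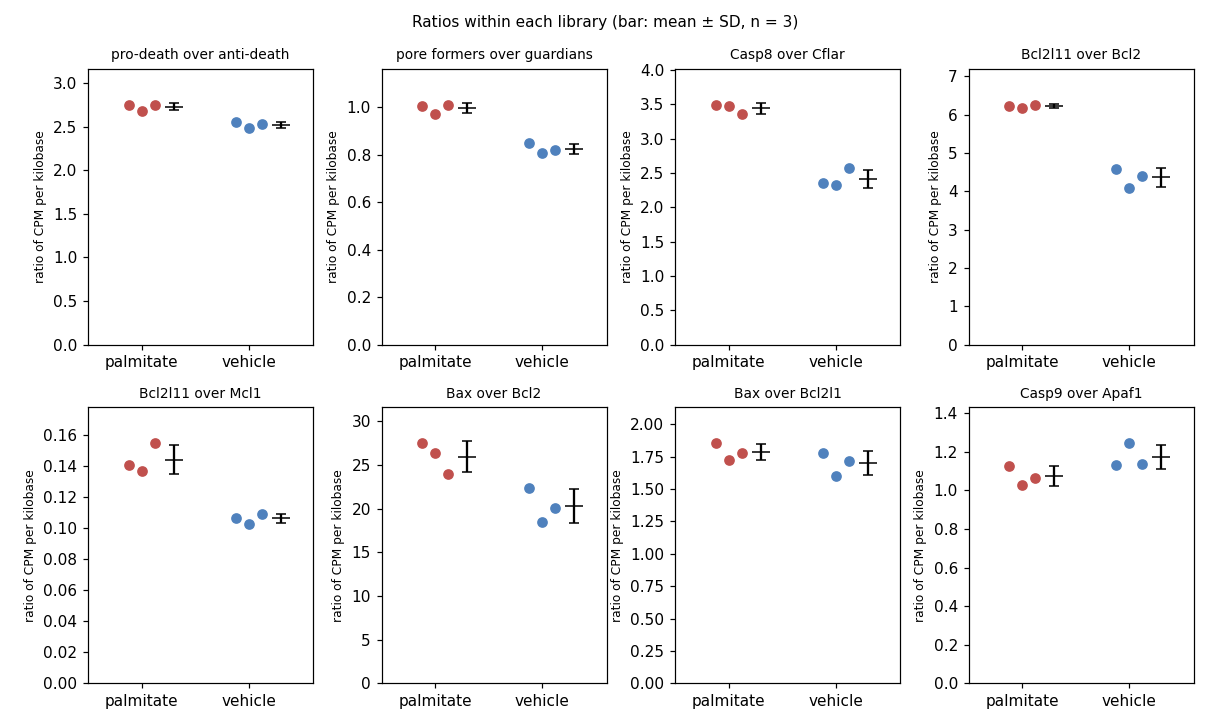
Ratios of message per kilobase of exon within each library, palmitate left and vehicle right, with mean ± SD of 3 libraries beside the points. The palmitate libraries lie above the vehicle libraries in 6 of the 8 panels, among them Casp8 over Cflar (3.35 to 3.50 with palmitate, 2.33 to 2.57 with vehicle), overlap with them for Bax over Bcl2l1, and lie below them for Casp9 over Apaf1.

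Downstream of the mitochondrion, Casp9 and Casp6 were lower and Htra2 was the 1 gene called higher. Casp9, the initiator caspase of the apoptosome, had 27.0, 25.1 and 26.1 CPM with palmitate, against 28.1, 30.7 and 29.6 CPM with vehicle. The groups did not overlap (log2 fold change -0.18 with SE 0.0497, edgeR adjusted p = 0.00136). Casp6, an effector caspase that cuts lamins, had 25.8, 24.4 and 23.4 CPM with palmitate and 30.2, 29.0 and 28.1 CPM with vehicle (log2 fold change -0.25, adjusted p = 2.38e-05, edgeR). Apaf1, the scaffold of the apoptosome, had a fold of 0.964 with a 95% interval of 0.917 to 1.01 and was not called. Casp2, linked to stress at the centrosome, had a fold of 1.01 with an interval of 0.963 to 1.06. Of the mitochondrial factors, Aifm1, which also serves the respiratory chain, had a fold of 0.996 (interval 0.952 to 1.04) and Diablo, which encodes SMAC, of 1.07 (0.949 to 1.197). Endog, a mitochondrial nuclease, had 5.10, 5.41 and 5.20 CPM with palmitate and 3.95, 5.00 and 4.62 CPM with vehicle, apart but not called (adjusted p = 0.142, edgeR). Htra2 was called higher (log2 fold change 0.11, adjusted p = 0.0390, edgeR), but not with DESeq2 (adjusted p = 0.191), after thinning (adjusted p = 0.0735) nor without palmitate replicate 1 or 2 or vehicle replicate 1 or 2 (adjusted p = 0.220, 0.0745, 0.145 and 0.144). Exon bases shared with other genes make up 32.9% of Diablo on the same strand and 34.0% of Htra2 and 35.7% of Endog on the opposite strand.

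Of the 4 inhibitors of apoptosis, 3 were lower and Birc6 higher. Xiap, the direct inhibitor of caspases, had 100, 96.8 and 103 CPM with palmitate, against 112, 107 and 110 CPM with vehicle, without overlap (log2 fold change -0.13, adjusted p = 6.04e-05, edgeR). Birc2, which encodes the ubiquitin ligase cIAP1 of the TNF receptor complex, had 37.3, 35.0 and 37.2 CPM with palmitate and 39.7, 42.2 and 43.2 CPM with vehicle (log2 fold change -0.19, adjusted p = 7.67e-05, edgeR). Birc3, which encodes its close relative cIAP2 and is a classic NF-kB target, was near the limit of detection, with 8, 9 and 11 counts with palmitate and 13, 22 and 24 with vehicle. It passed the count filter through the vehicle group alone, so a difference was built into its being tested (log2 fold change -1.17 with SE 0.313, edgeR adjusted p = 0.000955). Birc6, a giant inhibitor that tags caspases and autophagy proteins with ubiquitin, had 455, 459 and 463 CPM with palmitate and 418, 414 and 420 CPM with vehicle. All palmitate libraries lay above all vehicle libraries (log2 fold change 0.14 with SE 0.0171, edgeR adjusted p = 5.05e-11).

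At the death receptor complex, the inhibitor gene Cflar fell while Casp8, Fadd and Ripk1 rose. Cflar (ENSMUSG00000026031.16) had 62.6, 61.4 and 61.3 CPM in the palmitate libraries, against 79.4, 81.8 and 79.4 CPM in the vehicle libraries. The groups were far apart relative to their spread: 61.8 ± 0.706 CPM with palmitate and 80.2 ± 1.38 CPM with vehicle (mean ± SD of 3 libraries per group; edgeR adjusted p = 8.00e-18, log2 fold change -0.38 with SE 0.0324). Casp8, which c-FLIP pairs with, had 80.5, 78.5 and 75.6 CPM with palmitate, against 68.5, 70.0 and 75.0 CPM with vehicle. These came close without overlapping (log2 fold change 0.13, adjusted p = 0.000350, edgeR). Fadd, the adaptor that brings caspase-8 to the receptor, had 17.003, 18.3 and 18.8 CPM with palmitate and 16.0, 15.1 and 15.2 CPM with vehicle (log2 fold change 0.23, adjusted p = 0.00128, edgeR). Ripk1, a kinase and scaffold at the fork between survival, apoptosis and necroptosis, had 61.7, 56.7 and 54.1 CPM with palmitate and 55.0, 52.9 and 52.1 CPM with vehicle, which overlap. Its call (log2 fold change 0.11, adjusted p = 0.0118, edgeR) was lost without palmitate replicate 1 (adjusted p = 0.225) or vehicle replicate 3 (adjusted p = 0.0572), with DESeq2 (adjusted p = 0.103) and after thinning (adjusted p = 0.0512). Per kilobase, Casp8 message over Cflar message was 3.50, 3.48 and 3.35 in the palmitate libraries, against 2.35, 2.33 and 2.57 in the vehicle libraries.

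**Figure D3:**
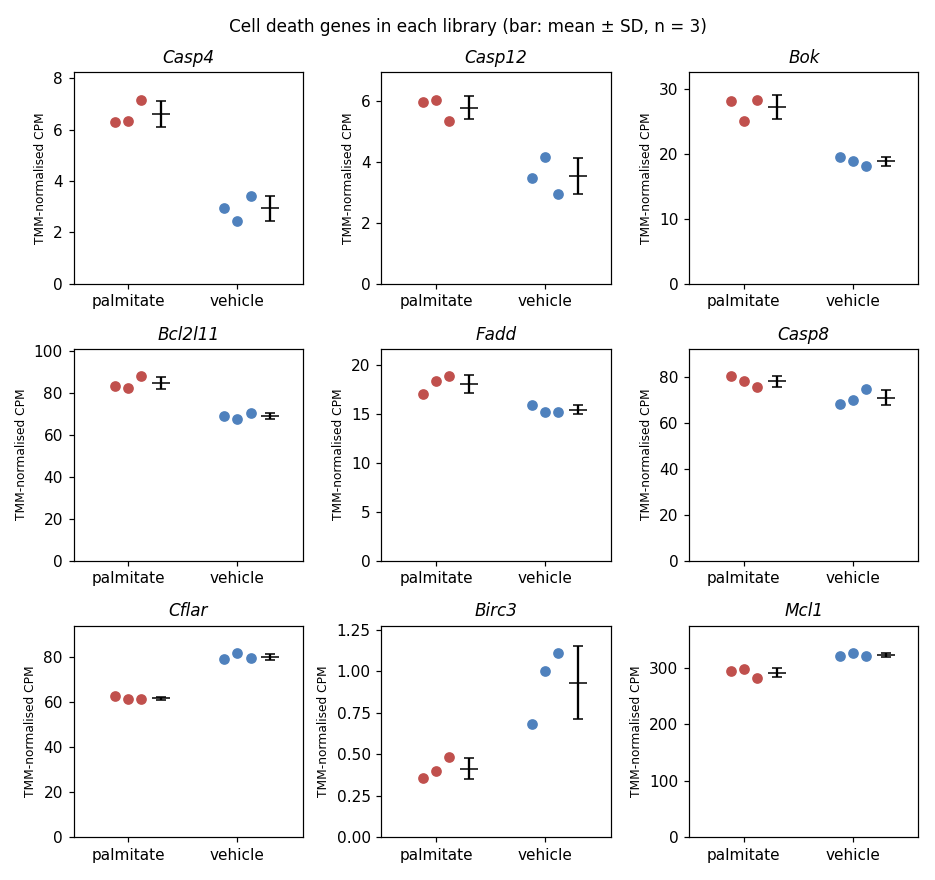
TMM-normalised CPM of 9 members in each library, palmitate left and vehicle right, on axes that start at 0, with mean ± SD of 3 libraries beside the points. Casp4 stands at 6.31 to 7.18 CPM with palmitate and 2.46 to 3.42 CPM with vehicle, and Cflar at 61.3 to 62.6 CPM with palmitate and 79.4 to 81.8 CPM with vehicle.

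Of the necroptosis pair, Mlkl was well measured and Ripk3 was near the floor of detection. Ripk3, the kinase that activates MLKL, had 5, 7 and 5 counts in the palmitate libraries and 11, 6 and 12 in the vehicle libraries, in all 17 against 29, and was too low to test. It entered the test in 4 of the 6 fits that left out a library. In each it passed the count filter through vehicle replicates 1 and 3 alone, where it was highest. A difference was thus built into its being tested. It was called lower without vehicle replicate 2 (edgeR adjusted p = 0.0272, log2 fold change -1.15), and not without palmitate replicate 1, 2 or 3 (adjusted p = 0.165, 0.0769 and 0.178). Mlkl itself had 33.6, 34.6 and 34.1 CPM with palmitate, against 31.5, 29.8 and 31.9 CPM with vehicle. Every palmitate library was above every vehicle library, and the gene was called higher (log2 fold change 0.14, adjusted p = 0.00938, edgeR). The call was lost without vehicle replicate 2 (adjusted p = 0.0911), with DESeq2 (adjusted p = 0.0927) and after thinning to the shallowest library (adjusted p = 0.130). Per kilobase of exon, the mean level of Mlkl was 17.02 with palmitate and 15.5 with vehicle, while that of Ripk3 was 0.127 with palmitate and 0.238 with vehicle.

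Among pyroptosis genes Casp4 and Casp12, both of low level, rose. Casp4 (ENSMUSG00000033538.14), the mouse sensor of cytosolic bacterial lipopolysaccharide, had 6.31, 6.35 and 7.18 CPM in the palmitate libraries, against 2.95, 2.46 and 3.42 CPM in the vehicle libraries. The lowest palmitate library was well above the highest vehicle library, and the means were 6.61 ± 0.491 CPM with palmitate and 2.94 ± 0.480 CPM with vehicle (mean ± SD of 3 libraries per group; edgeR adjusted p = 1.79e-13, log2 fold change 1.17 with SE 0.125). Only 3.10% of tested genes had a larger absolute log2 fold change. Casp12 (ENSMUSG00000025887.11), a related caspase placed at the endoplasmic reticulum in mouse cells, had 5.95, 6.03 and 5.33 CPM with palmitate, against 3.48, 4.14 and 2.95 CPM with vehicle (log2 fold change 0.71 with SE 0.124, edgeR adjusted p = 8.90e-07). The groups did not overlap, and the start of Casp12 follows that of Casp4 on chromosome 9. Casp1, the inflammasome caspase of the same cluster, was barely present, with 2, 0 and 3 counts with palmitate and 2, 4 and 1 with vehicle. Casp4 is strongly expressed in macrophages too. Of the leukocyte markers, Cd68 averaged 9.66 CPM with palmitate and 7.14 CPM with vehicle. Ptprc averaged 0.266 CPM with palmitate and 0.836 CPM with vehicle, and Lyz2 had 3 counts with palmitate and 0 with vehicle. The other markers went both ways, with 18 palmitate and 12 vehicle counts for Csf1r and 9 and 12 for Laptm5. Cd79a had 4 with palmitate and 1 with vehicle, and Itgam 1 and 2. All but Cd68 were named after their values were seen.

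Neither of the gasdermin members, which form the pores of pyroptosis, was higher with palmitate. Gsdmd, the target of the inflammatory caspases, was abundant, with 205, 193 and 199 CPM with palmitate, against 212, 207 and 205 CPM with vehicle. The difference was small (log2 fold change -0.06, adjusted p = 0.00857, edgeR), and its call was lost without palmitate replicate 2 (adjusted p = 0.146) or vehicle replicate 1 (adjusted p = 0.0790) and with DESeq2 (adjusted p = 0.102). Gsdme, another pore-forming gasdermin, averaged 10.5 ± 0.691 CPM with palmitate and 11.4 ± 1.11 CPM with vehicle, a fold of 0.913 with a 95% interval of 0.820 to 1.02, and was not called.

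Set side by side per kilobase of exon, 33 of the 38 members exceeded 1 CPM per kilobase in both groups. Gsdmd was highest, at 111 with palmitate and 116 with vehicle, followed by Mcl1 at 85.3 with palmitate and 94.3 with vehicle. The pore formers Bak1 (59.9 with palmitate, 54.8 with vehicle) and Bax (51.1 with palmitate, 46.4 with vehicle) came next. Guardian message was thus mostly that of Mcl1 and Bcl2l1 (28.6 with palmitate, 27.4 with vehicle), and Bcl2 itself stood at 1.97 with palmitate and 2.30 with vehicle. At the bottom were Birc3, Bik, Ripk3, Casp1 and Hrk, all under 0.25 in both groups.

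**Figure D4:**
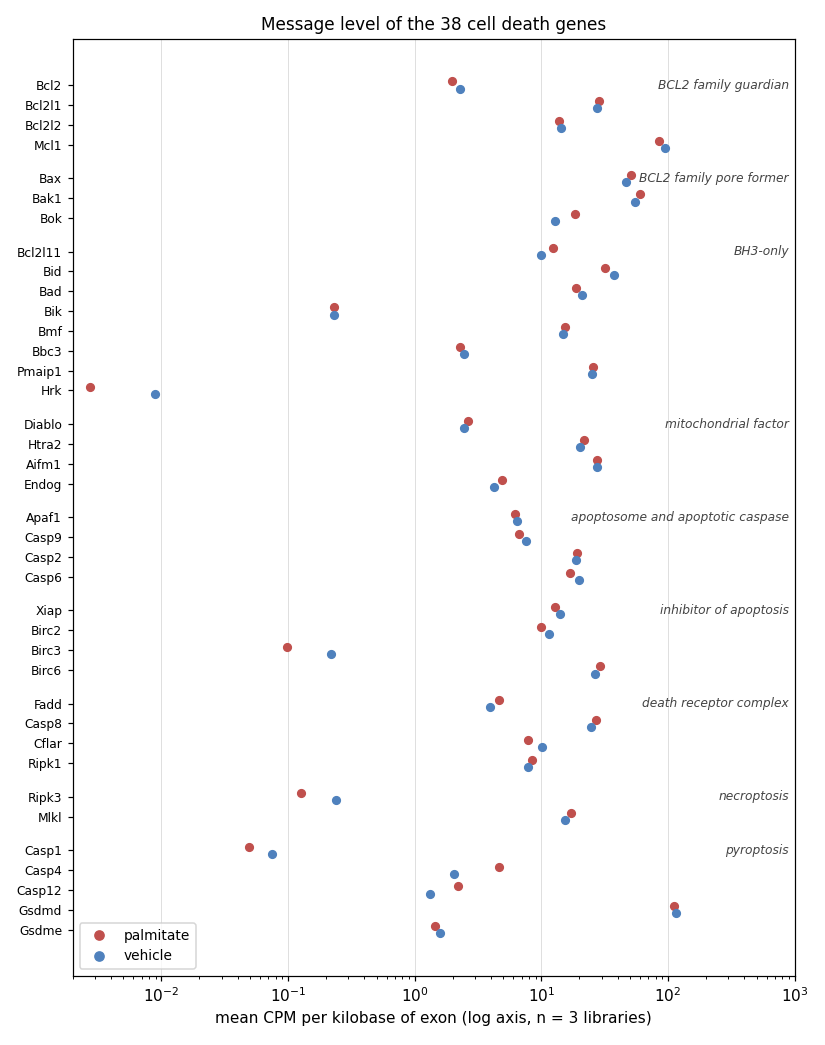
Mean CPM per kilobase of exon of all 38 members by role, palmitate above vehicle in each row, on a log axis. Levels range from 111 and 116 for Gsdmd to under 0.01 for Hrk. Within a row the points of palmitate and vehicle lie close together except for Casp4, Casp12, Birc3 and the barely detected Ripk3, Casp1 and Hrk.

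Other genes of these pathways, from lists that hold none of the members, were read in the same fit. Of 21 tested death receptors, ligands and adaptors 7 were higher and 5 lower, 57.1% called against the 52.8% of all genes. Those with the smallest p were Traf3 (0.24), Tradd (0.26) and Tnfrsf10b (0.41), the mouse TRAIL receptor, which rose, and Tnfrsf21 (-0.31), Tnf (-0.74) and Tnfaip3 (-0.49), which fell, given as log2 fold changes. The death receptor gene Fas, named after its values were seen, was low and fell, with 1.21 ± 0.258 CPM in palmitate libraries and 2.85 ± 0.486 CPM in vehicle libraries (mean ± SD of 3 libraries per group; edgeR adjusted p = 5.77e-08, log2 fold change -1.22).

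Of 14 tested genes in a list of other BCL2 relatives and mitochondrial apoptosis genes 6 were higher and 1 lower, 50.0% called, against 52.8% of all genes. Mtch2, the outer membrane receptor for BID, rose by 0.37 on the log2 scale, the channel gene Vdac3 by 0.37 and the hypoxia-linked Bnip3 by 0.53, while Vdac2, which holds BAK, fell (-0.08). Of 15 tested genes in a list of other caspases, inhibitors and caspase substrates 4 were higher and 1 lower, or 33.3%. Birc5, which encodes survivin and serves mitosis, rose by 0.23, Parp1, a caspase substrate of DNA repair, by 0.15, and the NLR family gene Naip6, which has near-identical relatives, fell (-0.64).

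Of 14 other necroptosis and pyroptosis genes tested 8 were lower (57.1%) and 2 higher (14.3%), where 25.4% of all tested genes were lower and 27.4% higher. Zbp1, a nucleic acid sensor that recruits RIPK3, fell to 3.15 ± 0.411 CPM with palmitate, against 11.2 ± 0.331 CPM with vehicle (mean ± SD of 3 libraries per group; edgeR adjusted p = 1.31e-27, log2 fold change -1.82 with SE 0.105). Nek7, a partner of NLRP3, fell by 0.60 on the log2 scale and the gasdermin gene Gsdma by 1.02, while Nlrc4 (0.29) and the mitochondrial phosphatase gene Pgam5 (0.13) rose. Of 13 tested genes in a list of p53, FOXO and stress-response genes 9 were higher (69.2%) and 2 lower (15.4%), against the same shares of all genes. Chac1 (1.00), which encodes an enzyme that degrades glutathione, and the transcription factor genes Atf4 (0.23) and E2f1 (0.34) rose, and Foxo1 (-0.30) and Trp53 (-0.11) fell, given as log2 fold changes. Trp53 passed the threshold only narrowly (edgeR adjusted p = 0.0487).

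In the authors' deposited table, which lists all 23399 genes, 8 members had a positive and 10 a negative log2 fold change at a q-value under 0.05, where 13.3% and 10.9% of all its genes did. Those shares run over every gene of the count table, also those too low for the edgeR test, while the edgeR shares run over 14987 tested genes. The 2 kinds of share are thus not alike. All 18 members were also called by edgeR with the same sign. The authors' deposited table gave log2 fold changes of 1.17 for Casp4, 0.71 for Casp12, 0.54 for Bok and -0.37 for Cflar, and a q-value of 0.0570 for Bax.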

How the data were processed

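Per the labels' protocols, the 6 libraries came from polyadenylated RNA and a stranded kit. The submitters' processing notes name FastQC 0.11.8, STAR 2.6.1, HTSeq, DESeq2 1.34.0 and mm39. The table of raw counts was used as deposited. The authors' deposited log2 fold changes, p-values and q-values come from DESeq2, per the file headers and their description. No source used here states whether they were shrunken. The deposited log2 fold changes of Bcl2 (-0.2197) and Hrk (-1.591) equal those of the DESeq2 fit run here, which used no shrinkage. No per-sample column was left unmapped.

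The test was edgeR 4.0.16 under R 4.3.3 (robust glmQLFit, glmQLFTest, two-sided) after TMM and filterByExpr (minimum count 10), with Benjamini-Hochberg adjustment over 14987 genes. A standard error is the log2 fold change over the root of F; 95% intervals use it. Exon lengths and overlaps come from GENCODE M21 by Ensembl identifier. All members may be named, and from each further list up to 3 called genes per direction by smallest p. From each marker list the most abundant gene was named, and for leukocytes also the others, after their values were seen. Some genes of the caspase list are not reported here. Members and lists were chosen with earlier results of these data known. Promoter motifs were chosen after the results were known and searched more than once. The first search held 7, namely longer forms of the NF-kB, ISRE and PPAR motifs, the present FOXO, GAS and C/EBP motifs, and a pair of p53 half-site cores. The longer NF-kB and PPAR forms and the p53 motif matched no member's window, and the longer ISRE matched Cflar and Ripk1. Later searches used shortened forms and left p53 out, since unambiguous motifs of that length are not spelled out here. The shortened NF-kB form matched no member and missed a kappa-B-like string seen in the Casp4 window, so the search reported here uses the 10-letter consensus for NF-kB. An ATF4 motif, tried in between, matched 1 member, Hrk, and was left out. Tests were tried on simulated counts. Alternatives were DESeq2 1.42.0, median-of-ratios factors, limma-voom 3.58.1, no count filter, glmTreat at 1.2-fold, the replicate number as a block, thinning, and leaving out each library. Counts within a group differed by more than counting noise in each pair of libraries (chi-square per degree of freedom 1.20 to 1.38). Figures were drawn with matplotlib 3.10.9.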

Additional observations from a re-analysis of the deposited data

How the results depend on the processing

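Of the 24 called members, 18 kept their direction and call under all alternatives other than the 1.2-fold test. The other 6 (Bcl2l1, Bax, Htra2, Ripk1, Mlkl and Gsdmd) lost it with DESeq2 and under further settings named in the report. No tested member outside the 24 gained a call. Ripk3, too low for the main test, was called lower without vehicle replicate 2 (edgeR adjusted p = 0.0272). It entered that fit through the vehicle libraries alone, where it is higher, so a difference was built into its being tested. The 1.2-fold test called 5 members, 3 higher (all death-promoting) and 2 lower (both death-restraining). Of the 2 lower, 1 is Birc3, for which a difference in that direction was built into its being tested. With this 1.2-fold test 0 death-promoting members were lower and 0 death-restraining members higher. The test called 968 higher and 1307 lower genes in all, or 15.2% of those tested. In the pathway lists it called 4 genes of death receptors and adaptors, 3 of other BCL2 relatives and 2 of other caspases. It also called 4 of other necroptosis and pyroptosis genes and 2 of the stress-response genes. With DESeq2, 8 members were higher, 7 of them death-promoting and 1 death-restraining, and 7 stress-response genes were called. DESeq2 called 3113 higher and 2579 lower genes in all, against 4110 and 3805 in the main test. With median-of-ratios factors or thinning, 1 death-restraining member was higher, where 4007 and 3873 of all genes were higher. Leaving out 1 library gave 9 to 13 members higher and 10 to 12 lower, with 1 to 2 death-restraining members higher. Over all genes the same fits called 3738 to 3908 higher and 3475 to 3572 lower. They called 7 to 10 stress-response genes, the lowest without vehicle replicate 1. The uncalled Aifm1 changed sign with no count filter (0.0035) and between -0.017 and 0.0052 without single libraries, and Casp2 ranged from -0.011 to 0.052; the cause was not tested. Same-numbered libraries did not deviate together (correlations -0.0062 to 0.0160, against -0.0196 to 0.0190 for differently numbered ones). Libraries within a group differed by little beyond counting noise, so a shared deviation could hardly show. Whether the numbers pair the samples is thus not settled. With the replicate block, 13 members were higher and 11 lower, where 4112 of all genes were higher and 3821 lower. Depth limits the genes under about 1 CPM, namely Birc3, Bik, Ripk3, Casp1 and Hrk.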
